A study of Mus musculus with 6 samples.

Results

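Oligodendrocytes are the cells that wrap axons of the brain in myelin, and 34 of their genes were followed across 6 arrays of mouse frontal cortex. The genes encode structural myelin proteins, enzymes, carriers and receptors of mature oligodendrocytes, transcription factors, and markers of the precursor cells, with Cryab set apart as a small heat shock protein. A gene was taken where the platform annotation gave its symbol to a probe set of its own, and where it had several the one with the highest mean signal was used. Of the 34 genes, 32 had such a probe set, among 18194 genes in all. Enpp2 and Trf had none and are not analysed here. Nkx6-2, a homeodomain factor of mature oligodendrocytes, read 38.5 to 75.2 and stood below the signal minimum of 89.0, which left 31 members among 11578 genes.

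Each genotype had 1 array, hybridised with RNA of a single lobe of frontal cortex. The mice were labelled male, were 21 days old, carried a mixed C57BL/6 and 129 background, and were recognised by phenotype according to the labels. The wild type (WT), the Vldlr knockout, the Apoer2 knockout and the knockout of both receptors (double knockout) were bred from parents heterozygous for both receptor genes, whereas the Dab1 and Reln knockouts were each bred separately. Neurons find their layer through reelin, the extracellular product of Reln, which binds Vldlr and Apoer2 and acts through the adaptor Dab1. Following the series title, the Dab1, Reln and double knockouts are called reeler models. The comparison arrays are WT and both single receptor knockouts. The Dab1 and Reln knockouts have no wild-type littermate on an array. With 1 animal per genotype, the effect of a genotype and the state of that animal or sample cannot be told apart, and every difference from WT below shares the same WT array.

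Myelin forms in a sequence. Precursors that carry the PDGF receptor and the proteoglycan of Cspg4 divide and migrate, newly formed oligodendrocytes transiently express Gpr17 and Enpp6, and mature cells then make the compact membrane under the control of Sox10, Olig2 and Myrf. In the mouse cortex this process is well under way at weaning age and continues into adulthood, so that precursors, newly formed and mature cells are all present in the tissue.

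Signals are intensities on a linear scale, and differences are on the scale of log2(signal + 28.1), which understates changes of dim genes. Signals of different genes were not set against each other. The bacterial control probe sets, a measure of background, read at most 28.4 to 39.6 on any array. Reln, Lrp8 (Apoer2) and Vldlr were lowest where they were targeted, while Dab1 read 478.5 in its knockout and 516.4 to 626.0 elsewhere, so that this probe set does not separate the Dab1 knockout clearly. For Gapdh, 5' over 3' probe signal lay between 1.37 and 1.43. All arrays are labelled male, yet on 5 of them Xist read 3367.6 to 4006.0, against 124.9 on the Apoer2 knockout array, which also read 3704.8 for growth hormone. Markers of cerebellar granule cells had a summed signal of 8857 to 11630 over 8 genes on the comparison arrays and 1985 to 3077 on the reeler models. All 7 of these markers past the signal minimum were lower in the reeler models at a limma adjusted p under 0.05, against 0.112% of all genes. Summed signals of 6 striatum markers were 6280 to 7088 on the comparison arrays and 7726 to 9274 on the reeler models. Those of 8 thalamus and midbrain markers were 6455 to 7125 and 5649 to 6295, in the same order. For 7 hypothalamus markers they were 2078 to 2561 and 2046 to 3128. For 8 endothelium and pericyte markers they were 3866 to 4203 and 3040 to 3879. The part of all these markers in the member values was not tested.

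Genes for the structural proteins of myelin mostly read within 1.5-fold of WT. All 12 structural genes passed the signal minimum, and their median log2 difference from WT was -0.23 in the Vldlr, -0.13 in the Apoer2, -0.24 in the Dab1, -0.37 in the Reln and 0.04 in the double knockout. The medians over all 11578 genes lay between 0.00 and 0.02. At the probe sets used, 1 structural gene was at least 1.5-fold below WT in the Vldlr knockout, against 2.64% of all genes. The same held for 1 in the Dab1 knockout (3.82%) and 3 in the Reln knockout (5.78%). There were 0 in the Apoer2 knockout (1.2%) and 0 in the double knockout (3.21%), and none was at least 1.5-fold above WT, where 1.84%, 1.17%, 2.54%, 4.69% and 2.31% of all genes were in the Vldlr, Apoer2, Dab1, Reln and double knockouts.

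Mbp encodes myelin basic protein, which holds the inner faces of the membrane together. Mbp read 9028.2 in WT, 8039.0 in the Vldlr, 8932.9 in the Apoer2, 8610.9 in the Dab1, 8486.3 in the Reln and 10052.8 in the double knockout. The double knockout was highest and the Vldlr knockout lowest, and no mutant was 1.5-fold from WT. Its 6 brightest probe sets of 8 each placed the double knockout above WT, by 0.07 to 0.18, and the Vldlr knockout below it, by -0.13 to -0.29, while the 2 dimmest gave -0.04 and -0.09 in the double knockout. Cnp, an enzyme of the cytoplasmic channels in myelin, read 6025.2 in WT, 5087.3 in the Vldlr, 5655.2 in the Apoer2, 5993.0 in the Dab1, 4449.4 in the Reln and 6270.3 in the double knockout. Its 3 probe sets differed from WT by -0.39 to -0.44 in the Reln knockout and by -0.05 to -0.13 in the Apoer2 knockout.

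Mag, an adhesion protein of the membrane next to the axon, read 3250.5 in WT, 2877.4 in the Vldlr, 2818.2 in the Apoer2, 3376.6 in the Dab1, 2518.1 in the Reln and 3171.7 in the double knockout. Mog, on the outer surface of the sheath, read 1272.5 in WT, 984.7 in the Vldlr, 1164.6 in the Apoer2, 903.2 in the Dab1, 874.6 in the Reln and 1195.6 in the double knockout. For Mog the Dab1 and Reln knockouts were lowest and WT highest, with the double knockout (-0.09) close to WT. Cldn11, which seals the layers of the sheath, ranged from 2015.8 in the Dab1 knockout to 2615.2 in the Reln knockout, and Opalin, a membrane glycoprotein, from 553.7 in the Reln knockout to 859.0 in the double knockout.

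Mobp, a small basic protein of compact myelin, read 6069.8 in WT, 3904.1 in the Vldlr, 5707.8 in the Apoer2, 4348.9 in the Dab1, 5571.1 in the Reln and 6019.3 in the double knockout. The Vldlr knockout was 1.55-fold and the Dab1 knockout 1.39-fold lower than WT, while the other 3 mutants were near it. Its probe sets disagreed in part, as 2 others gave -0.58 and -0.64 in the Dab1 knockout and a further one gave 0.19. Mal, a membrane protein of lipid-rich domains, read 4440.8 in WT, 3169.0 in the Vldlr, 4549.2 in the Apoer2, 3196.5 in the Dab1, 4464.1 in the Reln and 5220.3 in the double knockout. It was low on the same 2 arrays, at -0.48 in the Vldlr and -0.47 in the Dab1 knockout.

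Further genes of the sheath were lowest in the Reln knockout. Ermn, a cytoskeletal protein that appears late in myelination, read 712.5 in WT, 567.4 in the Vldlr, 518.9 in the Apoer2, 420.8 in the Dab1, 338.9 in the Reln and 661.3 in the double knockout. It was 2.02-fold lower than WT in the Reln and 1.65-fold lower in the Dab1 knockout, and its second probe set gave log2 differences of -1.69 and -1.25 there. That second probe set also gave -0.76 in the Vldlr, -0.61 in the Apoer2 and -0.71 in the double knockout. The one used gave -0.31, -0.44 and -0.10 on these arrays. Pllp, plasmolipin, read 1163.4 in WT, 1032.9 in the Vldlr, 1056.6 in the Apoer2, 1333.5 in the Dab1, 630.5 in the Reln and 1494.9 in the double knockout. The Reln knockout was 1.81-fold lower than WT and the double knockout 1.28-fold higher, the widest span of the mutants among the structural genes. Gjb1, a connexin that forms channels between the layers of the sheath, read 198.0 in WT, 168.6 in the Vldlr, 152.2 in the Apoer2, 147.6 in the Dab1, 119.3 in the Reln and 183.8 in the double knockout. It was 1.53-fold lower than WT in the Reln knockout, and its second probe set gave -1.36 there. On the other mutant arrays that second probe set gave -0.76 in the Vldlr, -0.57 in the Apoer2, -0.82 in the Dab1 and -0.75 in the double knockout. Tspan2, a tetraspanin, was not among them and read 3684.9 in WT, 2910.9 in the Vldlr, 3201.9 in the Apoer2, 3539.4 in the Dab1, 3351.5 in the Reln and 3720.4 in the double knockout, and its second probe set was above WT by 0.48 in the double knockout where the one used was at 0.01.

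**Figure D1:**
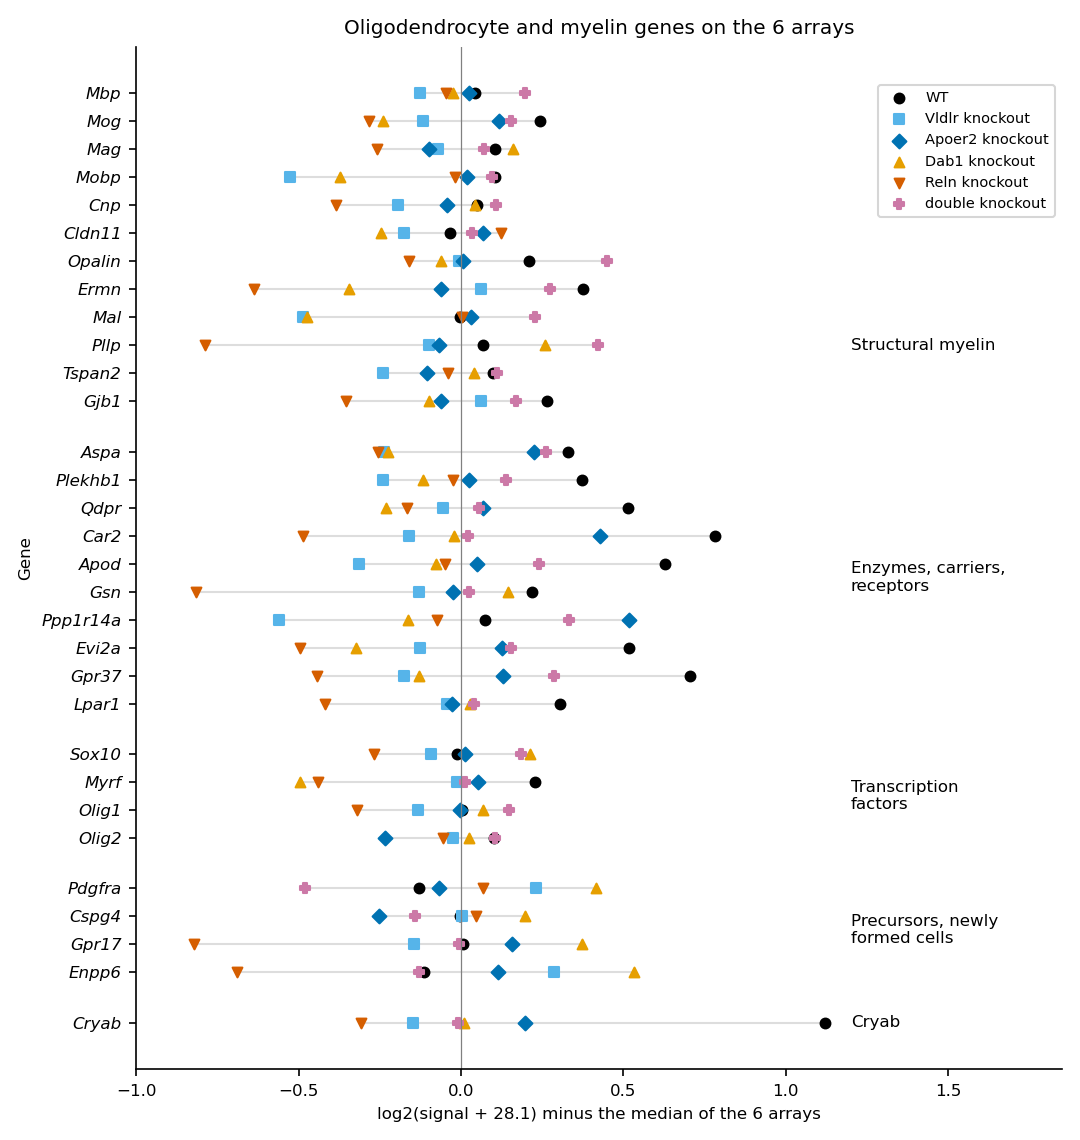
Each row is a gene, and each point is 1 array, placed by log2(signal + 28.1) minus the median of the 6 arrays for that gene. WT (black circles) lies at the right end for 9 of the 10 genes for enzymes, carriers and receptors, and the Reln knockout (downward triangles) lies at the left end for 17 of the 30 genes other than Cryab.

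The genes for enzymes, carriers and receptors of mature oligodendrocytes had medians further below WT than the structural genes on each mutant array. Over the 10 that passed the signal minimum the median log2 difference was -0.62 in the Vldlr, -0.35 in the Apoer2, -0.63 in the Dab1, -0.70 in the Reln and -0.31 in the double knockout. At least 1.5-fold below WT were 6 of the 10 in the Vldlr knockout (2.64% of all genes), 0 of the 10 in the Apoer2 knockout (1.2%), 5 of the 10 in the Dab1 knockout (3.82%), 7 of the 10 in the Reln knockout (5.78%) and 1 in the double knockout (3.21%), and none was 1.5-fold above. WT was the highest of the 6 arrays for 9 of these 10 genes and for 4 of the 12 structural genes, against 18.1% of all genes. Measured from the median of the 6 arrays in place of WT, the group stood at 0.44 in WT, 0.15 in the double, 0.10 in the Apoer2, -0.12 in the Dab1, -0.17 in the Vldlr and -0.34 in the Reln knockout. In tissue RNA, fewer cells of a type and less RNA per cell cannot be told apart.

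Car2, carbonic anhydrase II, read 3261.7 in WT, 1685.6 in the Vldlr, 2546.7 in the Apoer2, 1857.7 in the Dab1, 1337.6 in the Reln and 1912.1 in the double knockout. WT was highest, the Apoer2 knockout next, and the Reln knockout 2.41-fold lower than WT. Gpr37, an orphan receptor of mature oligodendrocytes, read 906.6 in WT, 479.9 in the Vldlr, 599.8 in the Apoer2, 496.1 in the Dab1, 393.6 in the Reln and 671.1 in the double knockout. WT was again highest, with the Reln knockout 2.22-fold lower than WT. Qdpr, the reductase that regenerates tetrahydrobiopterin, read 3863.2 in WT, 2595.1 in the Vldlr, 2829.2 in the Apoer2, 2292.8 in the Dab1, 2398.5 in the Reln and 2799.5 in the double knockout. All 5 mutants lay between -0.45 and -0.75 from WT, and its second probe set gave -0.53 to -0.77.

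Apod, a lipid carrier, read 2259.1 in WT, 1162.6 in the Vldlr, 1502.9 in the Apoer2, 1375.8 in the Dab1, 1404.3 in the Reln and 1720.4 in the double knockout. The Vldlr knockout was 1.92-fold lower than WT and the double knockout 1.31-fold lower. A second, dimmer probe set of Apod gave -1.49 in the Vldlr, -0.09 in the Apoer2, -0.47 in the Dab1, -0.04 in the Reln and -0.47 in the double knockout. Evi2a, a membrane protein gene, read 588.7 in WT, 366.9 in the Vldlr, 442.8 in the Apoer2, 316.5 in the Dab1, 277.5 in the Reln and 451.7 in the double knockout. The Reln and Dab1 knockouts were lowest, at -1.01 and -0.84 from WT. Gsn, gelsolin, which severs actin filaments, read 2544.1 in WT, 1996.6 in the Vldlr, 2147.9 in the Apoer2, 2420.0 in the Dab1, 1227.6 in the Reln and 2220.9 in the double knockout. The Reln knockout stood alone, 2.05-fold lower than WT, and 3 further probe sets gave -1.02 to -1.17 there and another -0.23, while the other 4 mutants lay between -0.07 and -0.35 at the probe set used.

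Aspa, which splits N-acetylaspartate to supply acetate for lipids, read 552.6 in WT, 364.9 in the Vldlr, 512.6 in the Apoer2, 367.9 in the Dab1, 359.1 in the Reln and 526.4 in the double knockout. WT, the double and the Apoer2 knockout formed the upper values and the Vldlr, Dab1 and Reln knockouts the lower ones, at -0.56, -0.55 and -0.58 from WT. Plekhb1, a membrane-binding protein, read 2381.8 in WT, 1548.7 in the Vldlr, 1865.1 in the Apoer2, 1686.9 in the Dab1, 1800.2 in the Reln and 2020.4 in the double knockout, and Lpar1, a receptor for lysophosphatidic acid, read 701.0 in WT, 544.3 in the Vldlr, 550.7 in the Apoer2, 572.7 in the Dab1, 413.3 in the Reln and 578.3 in the double knockout. WT was highest for both, and at the probe sets used Plekhb1 was lowest in the Vldlr and Lpar1 in the Reln knockout. In the Reln knockout the other 2 probe sets of Lpar1 gave -0.57 and -0.25. The latter was lowest in the Apoer2 knockout, at -0.45. Ppp1r14a, an inhibitor of myosin phosphatase, read 249.2 in WT, 150.5 in the Vldlr, 348.9 in the Apoer2, 206.9 in the Dab1, 221.7 in the Reln and 303.1 in the double knockout. It was the only gene of this group not highest in WT, with the Apoer2 knockout 1.36-fold higher than WT and the Vldlr knockout 1.55-fold lower.

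Some of these genes are also expressed by other cells, Car2 by choroid plexus and Apod and Gsn by meninges. The summed signal of 8 genes of meninges and fibroblasts was 9012 in WT and 8437 to 9681 in the mutants, but Ptgds alone read 5794.1 to 7043.0 of it. In the class comparison 6 of the 7 past the signal minimum lay below 0, all but Ptgds (0.07), with a median of -0.31. Below 0 were also 5531 of all 11578 genes. Of these 7, 4 were lower at an unadjusted limma p of 0.05, as were 661 of all 11578 genes. Without overlap were 3 (983 of all genes lower without overlap), and 0 passed after adjustment. Col1a1, a collagen and the lowest of the 7 in the class comparison, stood at -0.64 in the Vldlr, -0.15 in the Apoer2, -0.83 in the Dab1, -0.62 in the Reln and -1.18 in the double knockout against WT. Col3a1, another collagen, stood at 0.43 in the Vldlr and 0.10 in the Apoer2 knockout. Below WT were 4 of the 7 in the Vldlr, 2 in the Apoer2, 6 in the Dab1, 6 in the Reln and 5 in the double knockout. Of all 11578 genes, 5764, 5591, 5668, 5843 and 5445 were below WT, in the same order. The summed signal of 8 astrocyte genes was 24861 in WT and 20918 to 24186 in the mutants, and Slc1a2 and Aldoc, the brightest, read 6841.9 and 6756.2 in WT. WT was the highest array for 3 of the 8, against 18.1% of all genes. These were Aqp4, at -0.41 to -1.12 in the mutants, S100b, at -0.26 to -0.82, and Gfap, at -0.14 to -0.96. Others were above WT in some mutants, as Gja1 at -0.13 to 0.21 and Slc1a2 at -0.06 to 0.20. In the class comparison 3 of the 8, Aqp4, S100b and Slc1a3, were lower at an unadjusted limma p of 0.05, while Gfap stood at 0.16. Lower at that threshold were 661 of all 11578 genes. S100b and Slc1a3 did not overlap (983 of all genes lower without overlap), and 0 of the 8 passed after adjustment. The 5 choroid plexus and ependyma genes past the signal minimum had medians of -0.36 in the Vldlr and -0.25 in the Dab1 knockout against WT, and of -0.09 to 0.06 in the other 3. The part of these cells in the member values was not tested.

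**Figure D2:**
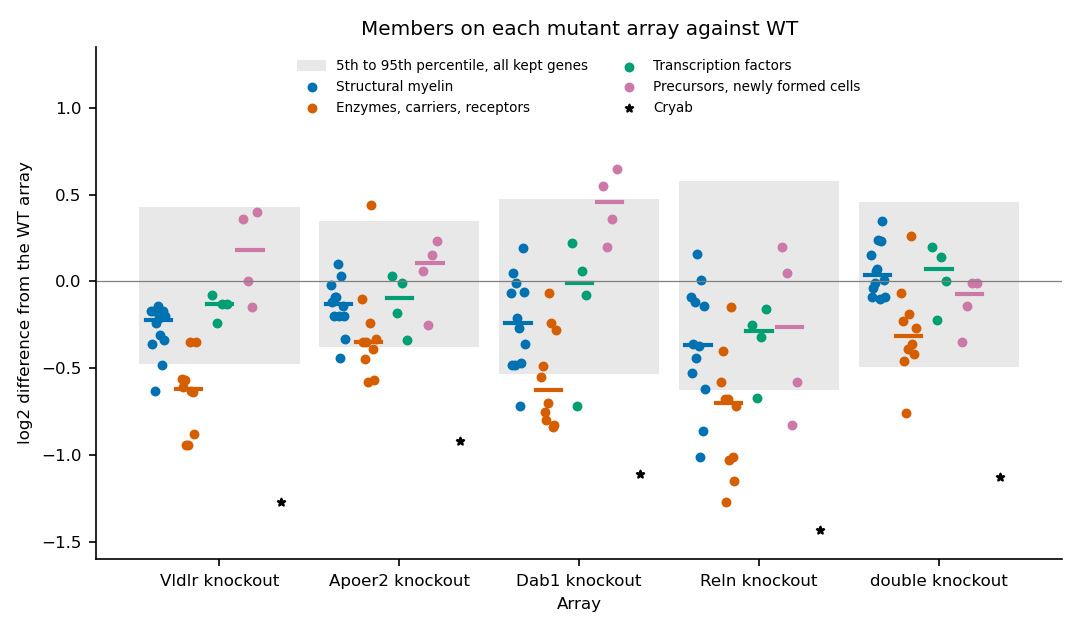
Points are members, grouped by list and by mutant array, at their log2 difference from the WT array, with a bar at each list's median. Grey boxes span the 5th to the 95th percentile of all 11578 genes on that array. The median of the enzyme, carrier and receptor genes lies below that of the structural genes on each array, and Cryab (star) lies below the grey box on all 5.

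Of the 4 transcription factors past the signal minimum, Myrf was the one with mutant arrays at least 1.5-fold below WT. Nkx6-2, which did not reach it, was 1.55-fold lower in the Vldlr and 1.52-fold lower in the double knockout. Over 4 genes the median was -0.13 in the Vldlr, -0.09 in the Apoer2, -0.01 in the Dab1, -0.29 in the Reln and 0.07 in the double knockout. Sox10, which is required for myelin gene transcription, read 632.8 in WT, 597.8 in the Vldlr, 644.8 in the Apoer2, 743.6 in the Dab1, 526.2 in the Reln and 729.4 in the double knockout. In the double knockout the probe set used for Sox10 stood at 0.20 from WT, and its other 2 at -0.18 and 0.07. Olig2, which specifies the lineage, read 608.0 in WT, 553.7 in the Vldlr, 475.2 in the Apoer2, 575.2 in the Dab1, 542.7 in the Reln and 608.6 in the double knockout. Its paralog Olig1 read 2790.0 in WT, 2538.7 in the Vldlr, 2776.5 in the Apoer2, 2916.5 in the Dab1, 2224.5 in the Reln and 3085.3 in the double knockout. For all 3 of them no mutant was 1.5-fold from WT. Myrf, the factor that drives the switch to myelination, read 784.4 in WT, 659.2 in the Vldlr, 690.4 in the Apoer2, 463.7 in the Dab1, 482.7 in the Reln and 670.7 in the double knockout. The Dab1 knockout was 1.65-fold and the Reln knockout 1.59-fold lower than WT, and the other 3 mutants lay between -0.24 and -0.18.

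Because Myrf was the factor with low arrays, upstream sequences were searched for CTGGNAC, a loose pattern for its motif in which N is any base. The SOX motifs ACAAAG and ACAATG were searched too. Both strands of the 250 bases before the start site in RefSeq (GRCm38.p6) were covered. Matches with different bases at N were counted alike, so that a match need not be a site of the factor. Promoters of 23 members were searched. Mbp was not searched, because its chromosome was left out for the members, though not for the count over all promoters. For Cryab, Car2, Evi2a, Myrf, Sox10, Olig1 and Gpr17 no promoter was at hand. The pattern CTGGNAC stood in 16.1% of all 32851 promoters and in 11 of 34 promoters of the members. For ACAAAG these were 16.5% and 12 of 34, and for ACAATG 10.7% and 5 of 34. Each listed promoter was counted, also where a gene had several, so that these are not counts of genes. For Mag, the windows at chr7:30914864-30915113 and chr7:30914923-30915172 overlap, and the same matches were counted in both. Shown here are the 4 members with a single listed promoter that held CTGGNAC, from the gene's own strand, with all 3 motifs in capitals.
Mog, chr17:37023399-37023648, minus strand: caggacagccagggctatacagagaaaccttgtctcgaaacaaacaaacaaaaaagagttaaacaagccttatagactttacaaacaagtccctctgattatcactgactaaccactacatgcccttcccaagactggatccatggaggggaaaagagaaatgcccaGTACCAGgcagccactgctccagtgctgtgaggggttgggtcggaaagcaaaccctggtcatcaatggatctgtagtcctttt
Cnp, chr11:100574689-100574938, plus strand: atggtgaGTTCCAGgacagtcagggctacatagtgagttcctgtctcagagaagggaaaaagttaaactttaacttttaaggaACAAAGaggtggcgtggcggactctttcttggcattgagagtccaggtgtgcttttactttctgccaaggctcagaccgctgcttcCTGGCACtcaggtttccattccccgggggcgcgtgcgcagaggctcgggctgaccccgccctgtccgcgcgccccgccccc
Apod, chr16:31314809-31315058, minus strand: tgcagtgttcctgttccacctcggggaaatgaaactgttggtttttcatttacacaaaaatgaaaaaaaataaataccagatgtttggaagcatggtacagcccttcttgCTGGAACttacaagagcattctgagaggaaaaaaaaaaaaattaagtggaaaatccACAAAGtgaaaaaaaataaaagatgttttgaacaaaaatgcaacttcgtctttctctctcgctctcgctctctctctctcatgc
Ppp1r14a, chr7:29289070-29289319, plus strand: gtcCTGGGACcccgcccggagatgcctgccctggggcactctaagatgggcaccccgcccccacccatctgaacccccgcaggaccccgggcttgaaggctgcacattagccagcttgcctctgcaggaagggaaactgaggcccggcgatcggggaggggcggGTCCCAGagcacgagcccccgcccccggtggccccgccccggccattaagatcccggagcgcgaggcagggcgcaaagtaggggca
No base was shared by 2 motifs in these windows. On the arrays with low Myrf, the Dab1 and Reln knockouts, these genes differed in their values. Apod stood at -0.70 and -0.68 from WT, and at -0.47 and -0.04 with its second probe set. Mog stood at -0.48 and -0.53, Ppp1r14a at -0.24 and -0.15 and Cnp at -0.01 and -0.44. A match is a run of letters, and binding was not measured.

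The markers of precursors and newly formed oligodendrocytes were highest in the Dab1 knockout, for 4 of 4 genes, where the Dab1 knockout was the highest array for 16.6% of all genes. Their median difference from WT was 0.46 there, 0.18 in the Vldlr, 0.11 in the Apoer2, -0.08 in the double and -0.26 in the Reln knockout. Pdgfra, the receptor for the growth factor that keeps precursors dividing, read 545.4 in WT, 708.8 in the Vldlr, 570.1 in the Apoer2, 809.9 in the Dab1, 630.2 in the Reln and 421.4 in the double knockout. It was lowest in the double knockout, and its second probe set differed there by only -0.06. Cspg4, the proteoglycan of precursors, read 151.4 in WT, 152.0 in the Vldlr, 122.7 in the Apoer2, 178.2 in the Dab1, 157.6 in the Reln and 134.8 in the double knockout, and no mutant was 1.5-fold from WT.

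Gpr17, a receptor of cells about to myelinate, read 992.5 in WT, 890.5 in the Vldlr, 1105.2 in the Apoer2, 1285.9 in the Dab1, 546.4 in the Reln and 982.7 in the double knockout. The Reln knockout was 1.78-fold lower than WT, and the Dab1 knockout 1.29-fold higher. Enpp6, a choline phosphodiesterase that marks newly formed oligodendrocytes, read 223.9 in WT, 304.5 in the Vldlr, 267.4 in the Apoer2, 366.2 in the Dab1, 140.9 in the Reln and 221.5 in the double knockout. It had the same 2 ends, 1.56-fold higher in the Dab1 and 1.49-fold lower in the Reln knockout, and was the only member at least 1.5-fold above WT on any array. Its second probe set, below the signal minimum, gave 0.38 and -0.75 on these arrays. Against this, 2.54% of all genes were at least 1.5-fold higher in the Dab1 knockout. Pdgfra and Cspg4, taken here as markers of the precursors, were at 0.20 and 0.05 in the Reln knockout. A second probe set of Cspg4, below the signal minimum, gave -0.29 there. The part of other cells in the Pdgfra and Cspg4 values was not tested.

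Cryab, alpha B-crystallin, is a chaperone that oligodendrocytes and some astrocytes express and that stress can induce. It is described apart from the myelin proteins and entered no median. Cryab read 1409.5 in WT, 568.0 in the Vldlr, 730.0 in the Apoer2, 636.4 in the Dab1, 506.3 in the Reln and 629.3 in the double knockout. WT stood above all 5 mutants, which were 1.9-fold to 2.69-fold lower, and the reeler models and single receptor knockouts overlapped. Its second probe set read 650.4 in WT and 275.7 to 372.1 in the mutants, and the third, near background, read 35.6 in WT and 23.3 to 55.3 in the mutants. At the probe sets used, each mutant was further below WT at Cryab than at any structural myelin gene. Other probe sets did not all keep this order. The second one of Ermn gave -1.69 in the Reln and -1.25 in the Dab1 knockout. Cryab stood there at -1.43 and -1.11 at the probe set used, and at -1.16 and -0.76 at its second.

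**Figure D3:**
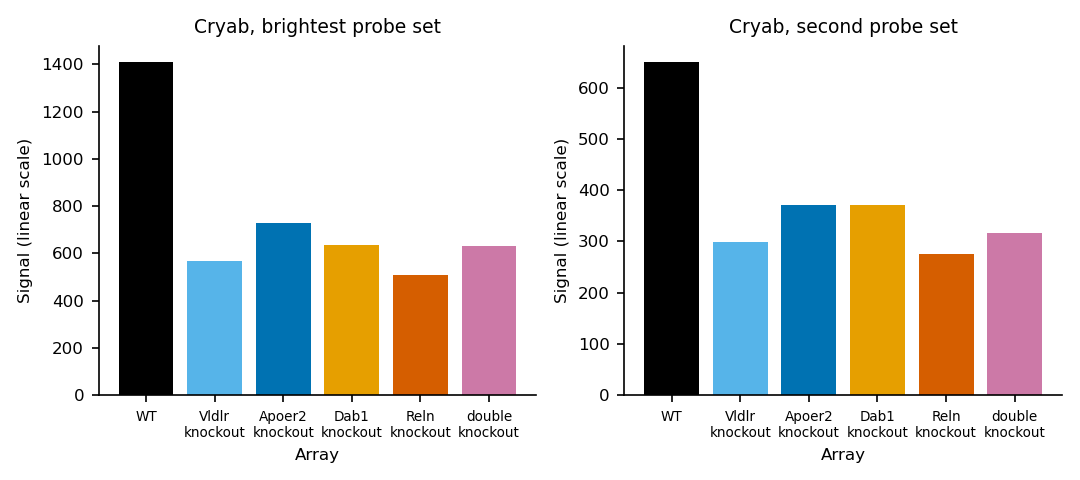
Bars give the signal of Cryab on a linear scale from 0 on each of the 6 arrays, for the 2 probe sets past the signal minimum. WT is highest at both probe sets, at 1409.5 and 650.4, and the Reln knockout is lowest, at 506.3 and 275.7.

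Among 11 heat shock and crystallin genes past the signal minimum, the median difference from WT ran from -0.34 in the double to 0.01 in the Reln knockout. Hspb1, another small heat shock protein, read 639.6 in WT, 448.3 in the Vldlr, 524.0 in the Apoer2, 457.8 in the Dab1, 1360.0 in the Reln and 442.7 in the double knockout, so that the Reln knockout was lowest for Cryab and highest for Hspb1. Hspa1a and Hspa1b, the inducible chaperones of the Hsp70 type, were lowest in the Vldlr knockout, at -1.07 and -1.13 from WT, and stood at -0.08 and 0.01 in the Reln knockout. They were chosen after their values were seen. In the class comparison the lowest were Hsph1 (-0.27) and Hspb8 (-0.17) and the highest Hspb1 (0.28) and Hspb6 (0.24), and 0 of 11 passed in limma in either direction, also at an unadjusted p of 0.05. Their part in the Cryab values was not tested.

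A comparison of the reeler models with the comparison arrays asks which differences the 3 models share. None of the 31 members passed an adjusted p of 0.05 in limma, against 0.13% of all 11578 genes (0.0173% higher and 0.112% lower), and the lowest adjusted p was 0.403. At an unadjusted limma p of 0.05 there was 1 member, Myrf, against 11% of all genes. The classes overlapped for every one of the 31 members, while they did not overlap for 17.6% of all genes. The genotypes within a class are not alike, and a limma p-value reflects no more than the scatter of these 6 arrays. The median over the 30 members without Cryab was -0.04, against 0.01 over all genes.

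Myrf stood at -0.40 on the log2 scale, reeler models minus comparison arrays (SE 0.14, limma adjusted p = 0.403). Car2 stood at -0.51 (SE 0.23, limma adjusted p = 0.455) and Evi2a at -0.39 (SE 0.20, 0.512 as the limma adjusted p). Cryab had -0.49 (SE 0.28), Ermn -0.36 (SE 0.22), Gpr37 -0.32 (SE 0.24) and Qdpr -0.29 (SE 0.15), with limma adjusted p-values of 0.542, 0.558, 0.64 and 0.502. Without the WT array Car2 was at -0.30, Cryab at -0.13, Gpr37 at -0.07, Evi2a at -0.22 and Qdpr at -0.12, while Myrf was at -0.33. Without the Vldlr knockout array Car2 was at -0.77 and Cryab at -0.76, without the Reln knockout array Ermn was at -0.16 and Gpr37 at -0.14, and without the double knockout array Ermn was at -0.62. With the mean of all its probe sets Cryab was at -0.26. The structural genes lay closer to 0, with a median of 0.01 over 12 genes and Mbp at 0.06 (SE 0.08), Cnp at -0.02 (SE 0.13), Mag at 0.01 (SE 0.11) and Mobp at 0.04 (SE 0.17). At the top were Tspan2 (0.12) and Mal (0.07), and at the bottom Ermn and Mog (-0.20).

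Over the 10 genes for enzymes, carriers and receptors the median was -0.22, with Ppp1r14a (0.02) and Plekhb1 (-0.05) highest. Of the 10, 9 lay below 0, as did 5531 of all 11578 genes. This median was -0.08 without the WT array, -0.07 without the Reln, -0.33 without the Vldlr and -0.35 without the double knockout array. The comparison arrays were themselves far apart for this group, since its summed signal was 17308 in WT, 13347 in the Apoer2 and 10895 in the Vldlr knockout, and 9833 to 13204 in the reeler models. The transcription factors had a median of 0.04 and the precursor and newly formed markers one of -0.08, with Cspg4 (0.12) and Pdgfra (-0.01) above Gpr17 (-0.16) and Enpp6 (-0.19).

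**Figure D4:**
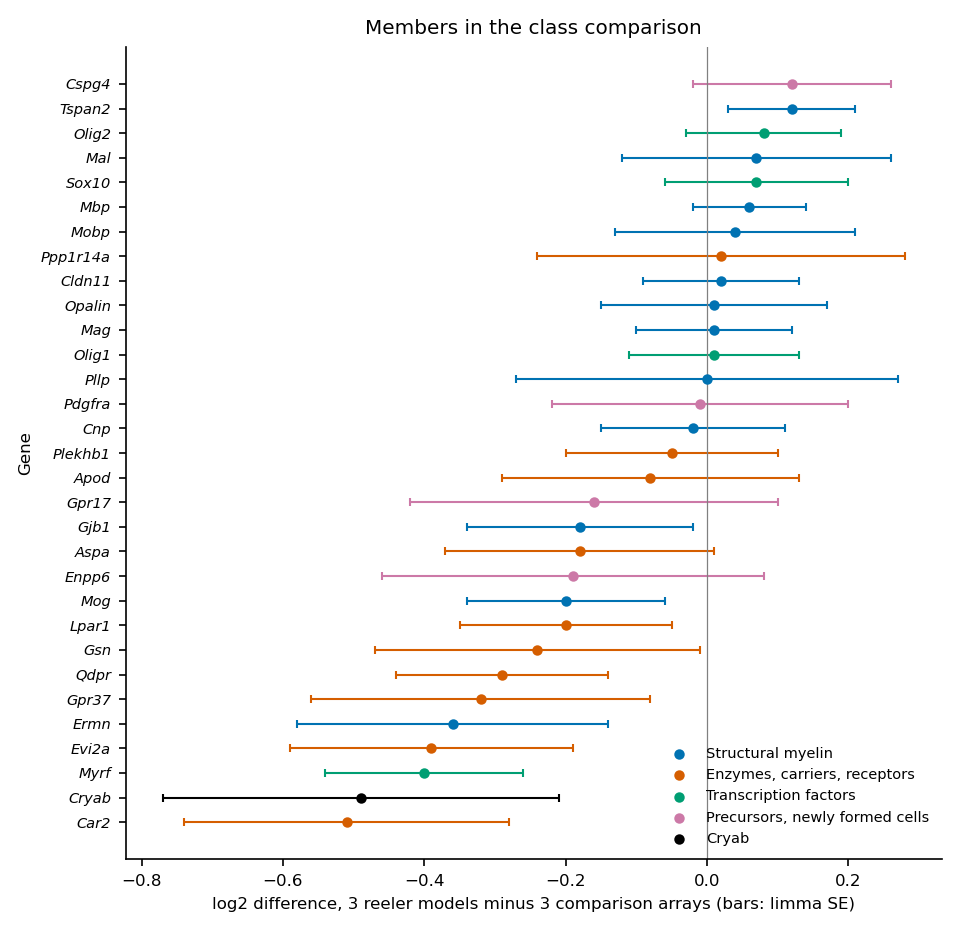
Points give each member's log2 difference between the 3 reeler models and the 3 comparison arrays, with limma's standard error as bars and colours for the lists. Car2 is lowest at -0.51 and Cspg4 and Tspan2 highest at 0.12, and no member passed the adjusted threshold.

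Single arrays stood out within each class. Of the 30 members without Cryab, the Reln knockout was the lowest of the 6 arrays for 17, against 25.1% of all genes, the Vldlr knockout for 7 (15.5%) and WT for 0 (19.9%). The double knockout was highest for 8 (17.2%), of which 6 were structural genes, namely Mbp, Cnp, Opalin, Mal, Pllp and Tspan2. Of the reeler models it had the most members near WT at the probe sets used. In it 29 of 30 members were within 1.5-fold (94.5% of all genes), against 22 in the Dab1 (93.6%) and 18 in the Reln knockout (89.5%). At least 2-fold below WT at these probe sets were 5 members in the Reln knockout (Car2, Gpr37, Gsn, Evi2a and Ermn), against 1.34% of all genes. There were 0 in the Vldlr (0.458%), 0 in the Apoer2 (0.207%), 0 in the Dab1 (0.743%) and 0 in the double knockout (0.613%). The 8 neuronal markers had a summed signal of 28070 in the Reln and 33421 in the double knockout, against 30377 in WT, and the 8 astrocyte markers 20918 and 24186, against 24861. The Reln knockout was the lowest of the 6 arrays for both sums, and their part in the member values was not tested.

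A further list of 36 oligodendrocyte genes that are no members had 30 past the signal minimum. Their medians from WT were -0.23, -0.13, -0.14, -0.33 and -0.19 in the Vldlr, Apoer2, Dab1, Reln and double knockouts. WT was highest for 12 of 30 (18.1% of all genes) and lowest for 4 of 30 (19.9%). In the class comparison 0 passed higher and 0 lower in limma, with a median of -0.13. At an unadjusted limma p of 0.05, 1 was higher and 0 lower, against 11% of all genes in either direction. The lowest were Anln, an actin-binding protein (-0.36, SE 0.24), and Tmem88b (-0.30, SE 0.17), and the highest were Vcan, a proteoglycan of precursors (0.35, SE 0.13), and Sirt2, a deacetylase (0.19, SE 0.13). Vcan was the only one of the 30 whose reeler arrays all lay above the comparison arrays, as 9.08% of all genes did.

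The same high WT value as at Cryab and Car2 was seen at Klk6, a protease of mature oligodendrocytes, which read 280.8 in WT, 89.5 in the Vldlr, 133.6 in the Apoer2, 160.2 in the Dab1, 119.5 in the Reln and 92.4 in the double knockout. Hapln2, a link protein at the node of Ranvier, read 424.5 in WT, 165.0 in the Vldlr, 296.9 in the Apoer2, 204.6 in the Dab1, 297.3 in the Reln and 257.3 in the double knockout. Klk6 and Hapln2 were chosen after their values were seen. In the same list Tcf7l2, Sox6, Vcan and Sirt2 went the other way, with WT the lowest array. On the axon side, the 12 genes of the node and paranode had medians of 0.01 in the Vldlr and -0.22 in the Reln knockout. Of these 12, 0 passed higher and 0 lower in limma, and 1 was lower at an unadjusted p of 0.05 (11% of all genes in either direction). Sptbn4 (0.15) and Kcna1 (0.13) were highest and Ank3 (-0.24) and Scn8a (-0.17) lowest. Of 7 genes for growth signals of the lineage, 0 passed in limma, adjusted or unadjusted, with Adgrg1 (0.34), Nrg3 (0.23) and Lingo1 (0.23) at the top and Jag1 (-0.13) and Notch1 (-0.01) at the bottom. Of the 8 peripheral myelin genes listed, 6 were measured and 4 passed the signal minimum, with a summed signal over the 6 of 1173 to 1539 in the reeler models and 1225 to 1304 on the comparison arrays. The 8 microglial genes had a summed signal of 3238 to 3959 and 3626 to 3862 in the same order. Of the 5 past the signal minimum 0 passed in limma in either direction, with 1 at an unadjusted p of 0.05 (11% of all genes).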

How the data were processed

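The authors deposited linear signal intensities of 45101 probe sets. The submitters' processing notes name MAS5 and Affymetrix Expression Console, whose versions the sources used here do not give. Total RNA was made into biotinylated cRNA, per the labels' protocols. From the values, the trimmed mean was 249.4 to 249.5 on every array.

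Gene names come from the platform annotation, in which 34958 named 1 gene, 932 several and 9211 are unnamed here. The brightest probe set on average stood for a gene, and a gene was kept if that average reached 89.0, the median of such averages over all probe sets. The pseudocount in log2(signal + 28.1) is the 25th percentile of the deposited values. Each mutant was described against WT with no test. For the classes, limma 3.58.1 (R 4.3.3) was run with eBayes, a trended prior and Benjamini-Hochberg adjustment over 11578 genes. The procedure was tried on simulated data with independent noise and changes larger than any member's in the class comparison. That trial does not show whether changes of the members' size would be called.

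Members, lists and tests were chosen with earlier results of these data known. Values on all 6 arrays are given for members at least 1.5-fold from WT on any array, without overlap, past the adjusted threshold, or among the 2 highest and 2 lowest of their list in the class comparison, and for Mbp, Mog, Mag, Mobp, Cnp, Sox10, Olig2, Pdgfra and Cryab. Named are also the 2 highest and 2 lowest of each other pathway list. Lists of other cell types are given as sums over all measured genes or as medians, with some of their genes named besides. Alternatives were other pseudocounts (1 and 89.4), no filter, a filter at 297.5, quantile normalization, other choices of probe set, no trend, other comparison arrays and leaving out each array.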

Additional observations from a re-analysis of the deposited data

How the results depend on the processing

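No paired analysis was possible because each genotype has 1 array. The count of members past the adjusted threshold was 0 in limma under all 15 alternatives, including each array left out in turn. The member median of the class comparison, -0.04, ran from -0.18 to 0.03 with 1 array left out, and was -0.18 without the Vldlr and without the double knockout array. With the median of the 6 arrays in place of WT, chosen after seeing the data, the member median was -0.13 in the Vldlr, 0.02 in the Apoer2, -0.04 in the Dab1, -0.26 in the Reln and 0.12 in the double knockout, against -0.28, -0.19, -0.26, -0.48 and -0.05 from WT. With the mean of the 3 comparison arrays in place of WT it was -0.30 in the Reln and 0.09 in the double knockout. The cause was not tested. Of 33 member values at least 1.5-fold from WT, 3 changed sign, all against the median of the 6 arrays: Car2 in the double knockout (0.02) and Cryab in the Apoer2 (0.20) and Dab1 (0.01) knockouts. All other alternatives kept the direction of those 33. Of the 285 alternative values, 42 kept it but moved by at least the gene's residual standard deviation in the class comparison. Precision is limited by having 6 arrays, with 1 for each genotype.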
